A study of Homo sapiens with 9 samples.

Results

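Cadherins and protocadherins were followed in A673 cells, a line from an Ewing sarcoma with the EWS/FLI translocation. A member was any probe set of the array whose only annotated symbol was CDH followed by a number or began with PCDH, with 1 cadherin gene left out by the rule. This gave 61 of the 22283 probe sets, for 44 genes, of which 17 were cadherin genes (26 probe sets) and 27 were protocadherin genes (35 probe sets). The study knocked down EZH2, the histone methyltransferase of Polycomb repressive complex 2, or inhibited histone deacetylases. RNA was measured on 9 human Affymetrix arrays in 5 groups. Transfected cells were held for 48 hours with 5 nM of EZH2 siRNA no.2 (2 arrays), of a further EZH2 siRNA with no number in its title (unnumbered EZH2 siRNA, 1 array) or of control siRNA (2 arrays). Other cells were kept for 24 hours in trichostatin A (TSA) at 100 nM (2 arrays), which blocks histone deacetylases, or in DMSO at 0.01% (2 arrays). All groups are the same cell line and the same fusion background. The titles call the replicates biological, but no label speaks of separate cultures, so a p here reflects the spread of these arrays, which may be technical.

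Cadherins are calcium-dependent adhesion proteins of the cell surface. Classical cadherins bind the same cadherin on the next cell and hold actin through catenins, with type I members such as CDH1 (E-cadherin) and CDH2 (N-cadherin) and type II members typical of neural and mesenchymal tissue. Protocadherins lack the catenin-binding tail. Their alpha, beta and gamma genes lie in tandem clusters, where each neuron switches on its own few promoters, a choice in which the proteins CTCF and cohesin take part, and the non-clustered protocadherins such as PCDH7 lie elsewhere.

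Array medians lay between 124.7 and 158.9, and arrays of the same group correlated at r = 0.957 to 0.969 across probe sets. On a log2 scale the hybridisation controls averaged 9.80 to 10.16 on replicate 1 and the unnumbered siRNA array and 10.43 to 10.53 on replicate 2, so differences are also given by replicate number. EZH2 (203358_s_at) had signals of 572 and 270.6 with EZH2 siRNA no.2 and 681 with the unnumbered EZH2 siRNA, against 1130.1 and 1172 with control siRNA. It had 1257 and 1055 in TSA, against 990.1 and 861 in DMSO. The log2 fold change with EZH2 siRNA no.2 was -1.48 (SE 0.32, limma adjusted p = 0.92), with -0.95 and -2.02 by replicate number. It was -0.978 when EZH2 siRNA no.2 replicate 2 was left out. All arrays with an EZH2 siRNA lay below all the others for this gene.

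Many members gave little signal. A signal was called low below 53.33, the 30th percentile of the probe sets' mean signals, and a probe set with a mean below it was not tested. Of the 61 member probe sets 36, of 27 genes, passed this filter (59.0%, against 71.7% of all probe sets with 1 gene). Another 20 were low on all 9 arrays, with signals of 0.544 to 52.1. In 13 genes every probe set was low on every array. They were the epithelial cadherins CDH1 and CDH3, the kidney cadherin CDH16, the type II cadherins CDH7, CDH9, CDH19 and CDH20, and PCDHA2, PCDHA10, PCDHGA8, PCDHGA9, PCDHGA10 and PCDHGB6. CDH17 (a cadherin of gut epithelium), PCDH12, PCDH11X and PCDHB8 also failed the filter but were not low on some arrays. A low signal gives no level, and the values came without detection calls.

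With EZH2 siRNA no.2, most tested beta protocadherin and PCDH7 probe sets stood higher than with control siRNA and CDH11 stood lower, but no member passed the test. For PCDHB11, PCDHB13, PCDHB17P and PCDH7 (210273_at) the groups overlapped. Of the 36 members tested, 0 passed limma at an adjusted p under 0.05 (background 0%), and the lowest adjusted p of a member was 0.92. At an unadjusted p under 0.05 there were 5 members, or 13.9%, beside 5.27% of all 13665 probe sets tested. The 4 higher ones (background 3.56%) were PCDHB6, PCDHB1, PCDH7 (205534_at) and PCDHB12, and the lower one (background 1.71%) was CDH11 (207173_x_at). Groups did not overlap in 10 higher members (27.8%, background 22.4%) and 2 lower ones (5.56%, background 12.8%). With a change of at least 2-fold on the log2(signal + 25.1) scale of the fit, which holds wherever a fold is counted here, there were 3 higher members (background 1.27%), PCDHB6, PCDHB1 and PCDH7 (205534_at), and 0 lower ones (background 0.432%).

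With TSA, PCDH7 stood higher than in DMSO without overlap on all its probe sets but 210273_at, and again no member passed. Limma gave 0 of 36 at an adjusted p under 0.05 (background 0%), with a lowest adjusted p of 1.00. At an unadjusted p under 0.05 there were 2 members (5.56%, background 2.41%), both probe sets of PCDH7 and both higher (background 1.24%), with 0 lower (background 1.17%). Groups did not overlap in 9 higher members (25%, background 16.1%) and 2 lower ones (5.56%, background 12.1%), and 1 of the higher, PCDH7 (210941_at), differed by at least 2-fold (background 0.454%).

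The median log2 fold change of the 36 members was 0.20 with EZH2 siRNA no.2, beside 0.07 over all probe sets tested, and 0.29 with TSA, beside 0.04. Over all 61, with no filter, it was 0.0847 with EZH2 siRNA no.2, beside 0.0664 over all probe sets, and 0.145 with TSA, beside 0.0320. In each of these comparisons 29 of the 36 were above 0. Of all 13665 probe sets tested 7948 were above 0 with EZH2 siRNA no.2 and 7560 with TSA. The 36 are of 27 genes, with PCDH7 counted on 4 probe sets. By replicate number the median was 0.227 and 0.391 with EZH2 siRNA no.2, and 0.383 and 0.0773 with TSA. The sign was the same in both replicate numbers for 22 of 36 members with the siRNA (all probe sets: 57.0%) and for 21 of 36 with TSA (all probe sets: 50.9%). In bulk RNA, a change in the share of cells that express a gene and a change in RNA per cell cannot be told apart.

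**Figure D1:**
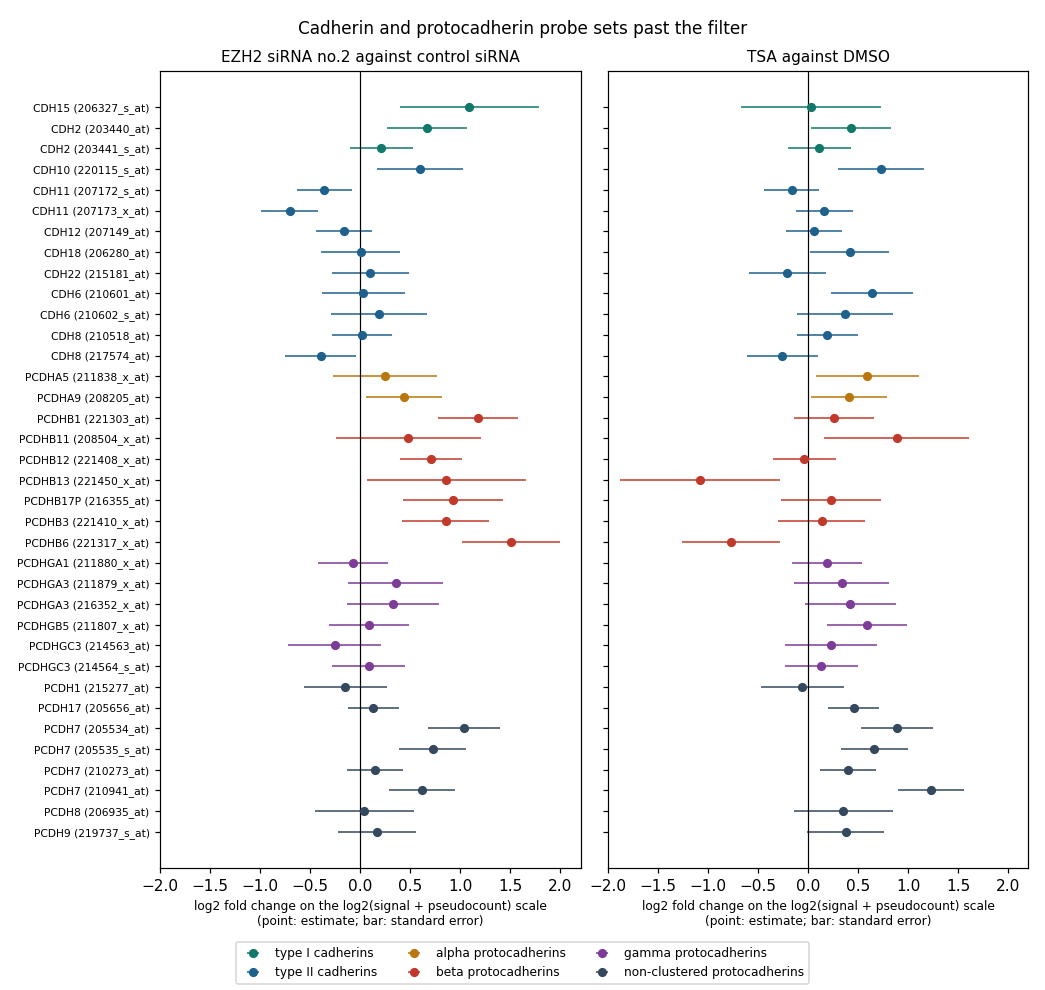
Log2 fold changes (points) with their standard errors (bars) of the 36 member probe sets tested, for EZH2 siRNA no.2 against control siRNA (left) and TSA against DMSO (right), coloured by family. All 7 beta protocadherin points lie above 0 on the left and 4 of 7 on the right, both CDH11 points lie below 0 on the left, and all 4 PCDH7 points lie above 0 on both sides.

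The beta protocadherins are single-exon genes of the cluster, each with its own promoter. Promoters of 4 of them, whose values follow, are shown because they carry a shared element or a near match of it. The sequences are RefSeq's on GRCh38.p14, read 5′ to 3′ on the plus strand from 250 bases before to 50 after the annotated start. They are PCDHB1 at chr5:141051124-141051423, PCDHB3 at chr5:141100223-141100522, PCDHB12 at chr5:141208469-141208768 and PCDHB13 at chr5:141213669-141213968. Capitals mark GGTGGCGCT, or in PCDHB1 its near match. GGTGGCGCT holds CGCT, the known core of the conserved element of clustered protocadherin promoters, and the near match does not.
PCDHB1: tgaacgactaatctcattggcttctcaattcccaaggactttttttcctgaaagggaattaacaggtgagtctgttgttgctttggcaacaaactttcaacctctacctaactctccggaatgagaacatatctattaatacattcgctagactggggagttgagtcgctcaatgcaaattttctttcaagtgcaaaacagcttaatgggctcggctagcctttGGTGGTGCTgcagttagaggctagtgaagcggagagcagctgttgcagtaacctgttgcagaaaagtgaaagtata
PCDHB3: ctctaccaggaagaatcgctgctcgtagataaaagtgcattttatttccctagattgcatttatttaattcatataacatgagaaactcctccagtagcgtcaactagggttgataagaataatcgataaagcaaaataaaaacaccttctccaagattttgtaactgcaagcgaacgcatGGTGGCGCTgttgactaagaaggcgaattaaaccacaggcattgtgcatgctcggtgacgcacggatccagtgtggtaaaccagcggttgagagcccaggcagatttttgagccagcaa
PCDHB12: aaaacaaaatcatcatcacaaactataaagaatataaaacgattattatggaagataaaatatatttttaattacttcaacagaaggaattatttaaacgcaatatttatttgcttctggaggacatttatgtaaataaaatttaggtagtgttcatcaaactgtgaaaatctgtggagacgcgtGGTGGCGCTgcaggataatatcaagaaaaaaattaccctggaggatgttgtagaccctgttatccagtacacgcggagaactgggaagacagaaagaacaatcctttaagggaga
PCDHB13: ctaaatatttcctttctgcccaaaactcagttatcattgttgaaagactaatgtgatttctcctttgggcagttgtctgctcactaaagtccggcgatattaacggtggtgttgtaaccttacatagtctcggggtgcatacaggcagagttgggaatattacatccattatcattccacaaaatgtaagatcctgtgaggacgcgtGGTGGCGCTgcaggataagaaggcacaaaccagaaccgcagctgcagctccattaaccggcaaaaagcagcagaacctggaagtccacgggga

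The letters GGTGGCGCT were picked from these promoters and then searched on both strands. They begin 69 bases before the start in PCDHB3, 65 in PCDHB12, 43 in PCDHB13 and 2 in PCDHB8, whose promoter is not shown. PCDHB1 has a single near match, 26 bases before the start, with the substitution C6T (counted from the motif's 5′ end). The substitution falls within CGCT, so the marked letters of PCDHB1 lack it, though its promoter holds CGCT 3 times elsewhere, counting both strands. The exact letters were in 4 of the 5 beta promoters matched to members (PCDHB3, PCDHB12, PCDHB13 and PCDHB8). They were also in all 9 promoters of beta genes that are no member. PCDHB6, PCDHB11 and PCDHB17P had no matched promoter. Among promoters of clustered protocadherin members the letters were in 4 of 19, all of them beta, and in no alpha or gamma promoter. The letters were in 0 of 24 promoters of cadherin and non-clustered protocadherin members and in 0.501% of 35116 promoters in all. With 1 mismatch allowed, 12.2% of all promoters match. The shorter CGCT, which overlaps it, was in 70.0% of all promoters and in 38 of 43 member promoters (33 of 44 member genes matched). The median GC content was 43.0% in the 5 beta promoters and 48.3% in all 43 member promoters, against 58.7% over all promoters.

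Of the 9 beta probe sets 7 were tested. All 7 log2 fold changes with EZH2 siRNA no.2 were above 0 (all probe sets: 7948 of 13665), with a median of 0.86. Of them 3 had an unadjusted limma p under 0.05, beside 5.27% of all probe sets tested. The median was 1.10 and 0.534 with the pseudocount at the 5th and 40th percentile, and the filter at the 50th percentile left 1 of the 7. The 7 were also above 0 in replicate 1 (median 0.828) and in replicate 2 (median 1.16), and without the filter 8 of the 9 were. The filter took the mean over all 9 arrays, which was 59.8 for PCDHB1 and 62.2 for PCDHB11. Without the arrays with an EZH2 siRNA both means would fall below 53.33. These probe sets thus passed through the groups in which they stood higher, and their sign lends no support. In 5 of the 7 the probe set name ends in _x_at, which means that its probes may also match related genes, so these are not 7 separate measurements.

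PCDHB6 (221317_x_at) had signals of 244.3 and 189.5 with EZH2 siRNA no.2 and 129.5 with the unnumbered EZH2 siRNA, against 99.6 and 32.5 with control siRNA. Both siRNA no.2 arrays lay above both control arrays, and its array lay between them. PCDHB6 thus differed by 1.50 on the log2 scale (SE 0.49, adjusted p = 0.92 by limma), with 1.11 in replicate 1 and 1.90 in replicate 2, and 0.947 without control siRNA replicate 2. In TSA the signals were 171.9 and 49.4, against 163.9 and 201.1 in DMSO, so the TSA arrays fell on either side of the replicate 1 DMSO array. For TSA the log2 value was -0.77 (SE 0.49), with 0.06 in replicate 1 and -1.60 in replicate 2, and -0.0699 without TSA replicate 2. The difference between the siRNA and TSA effects was 2.28 (SE 0.69, limma adjusted p = 1.00), the only member at an unadjusted p under 0.05 (background 1.71%).

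PCDHB1 (221303_at) had 69.8 and 90.3 with EZH2 siRNA no.2 and 64.1 with the unnumbered EZH2 siRNA, against 16.1 and 26.7 with control siRNA. All 3 arrays with an EZH2 siRNA lay above both control arrays, which were low. This difference was 1.18 on the log2 scale (SE 0.40, adjusted p = 0.92 by limma), with 1.20 in replicate 1 and 1.16 in replicate 2, and 0.621 with the pseudocount at the 40th percentile. TSA and DMSO cells also lay above the control siRNA, at 57.5 and 95.8 in TSA, against 52.2 and 65.9 in DMSO.

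PCDHB12 (221408_x_at) had 154.6 and 140.3 with EZH2 siRNA no.2 and 127.2 with the unnumbered EZH2 siRNA, against 76.2 and 85.0 with control siRNA. The groups did not overlap, and the difference was 0.71 on the log2 scale (SE 0.31, adjusted p = 0.92 by limma), with 0.83 and 0.59 by replicate number. In TSA it had 86.3 and 99.2, against 93.8 and 97.8 in DMSO (log2 -0.04). Both of these groups lay below the arrays with an EZH2 siRNA and above the control siRNA.

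PCDHB3 (221410_x_at) had 317.8 and 288.1 with EZH2 siRNA no.2 and 146.3 with the unnumbered EZH2 siRNA, against 272.9 and 85.3 with control siRNA. The groups did not overlap, but the control arrays were far apart. On the log2 scale the difference of 0.85 (SE 0.44) came to 0.20 and 1.51 by replicate number, and to 0.137 without control siRNA replicate 2. In TSA the signals were 329.1 and 183.1, against 240.7 and 205.5 in DMSO (log2 0.13).

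The pseudogene PCDHB17P (216355_at) had 63.7 and 105.5 with EZH2 siRNA no.2 and 88.4 with the unnumbered EZH2 siRNA, against 10.7 and 65.0 with control siRNA. These groups overlapped. Its log2 fold change was 0.93 (SE 0.50), and 0.258 without control siRNA replicate 1. Its other probe set was low on every array.

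In the remaining beta probe sets the groups overlapped or most arrays were low. PCDHB13 (221450_x_at) had 208.3 and 107.7 with EZH2 siRNA no.2 and 86.1 with the unnumbered EZH2 siRNA, against 149.8 and 28.7 with control siRNA (log2 0.86, SE 0.80). In TSA it had 255.3 and 15.2, against 269.9 and 146.3 in DMSO (log2 -1.08, SE 0.80), and without TSA replicate 2 the value turned to 0.318. PCDHB11 (208504_x_at) had 166 and 26.4 with EZH2 siRNA no.2, against 88.1 and 19.5 with control siRNA, and 124.7 and 20.3 in TSA, against 20.4 and 18.8 in DMSO. PCDHB8 (221319_at) was low on 7 arrays, with 69.4 and 36.4 with EZH2 siRNA no.2, against 29.2 and 31.5 with control siRNA.

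**Figure D2:**
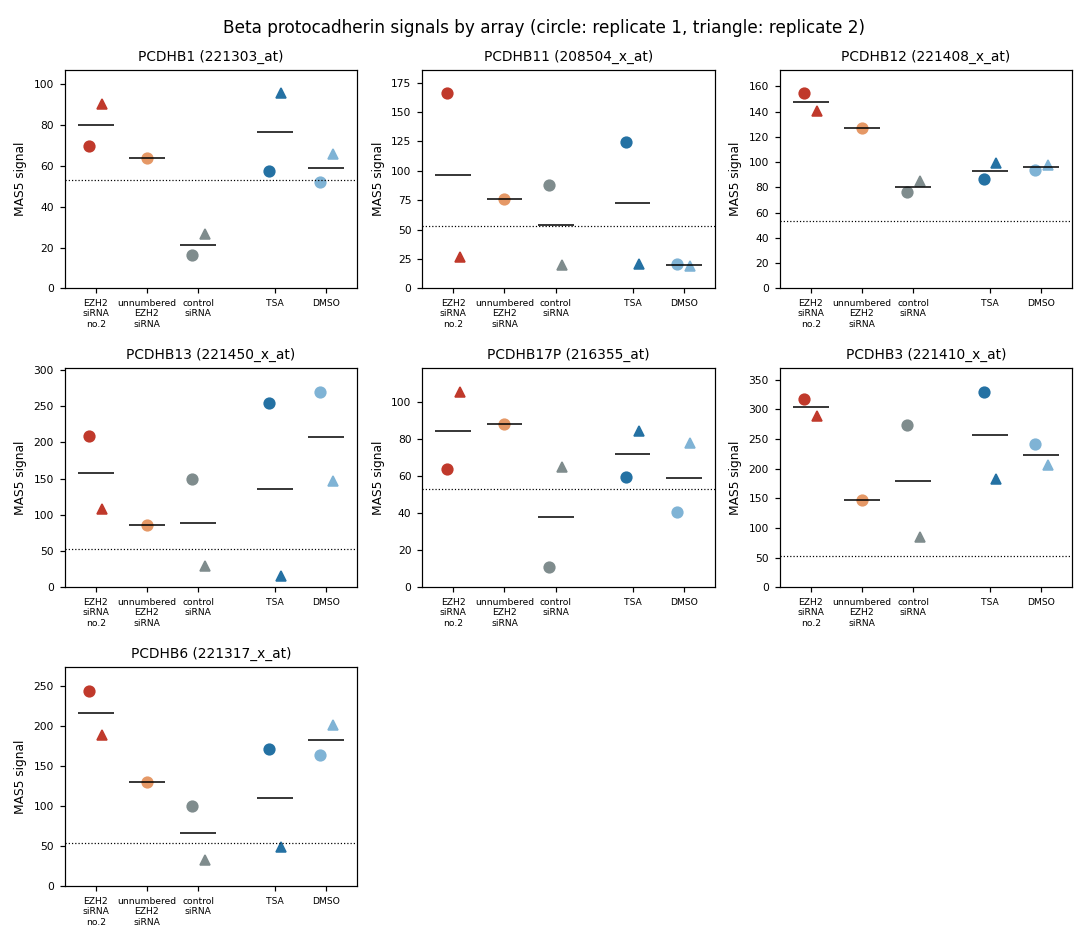
MAS5 signals of the beta protocadherin probe sets tested, one panel per probe set, by group, with a circle for replicate 1, a triangle for replicate 2, a line for the group mean and a dotted line at the low mark of 53.33. For PCDHB6, PCDHB1, PCDHB12 and PCDHB3 both EZH2 siRNA no.2 arrays lie above both control siRNA arrays, while TSA and DMSO overlap.

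For most beta protocadherins the control siRNA mean also lay below that of DMSO, a solvent control at another time. DMSO against control siRNA gave log2 1.29 for PCDHB6 (the only member at an unadjusted p under 0.05, background 4.26%, or 2.93% for higher and 1.33% for lower), 0.86 for PCDHB1, 0.45 for PCDHB3, 0.54 for PCDHB17P, 1.21 for PCDHB13 and 0.20 for PCDHB12. PCDHB11 went the other way, at -0.67, as did PCDHB8 in a fit without the filter, at -0.21. DMSO and control siRNA arrays did not overlap for PCDHB6, PCDHB1 and PCDHB12, and overlapped for PCDHB3, PCDHB17P, PCDHB13, PCDHB11 and PCDHB8. The beta median was 0.54 there, beside 0.86 for EZH2 siRNA no.2, 0.53 for the unnumbered EZH2 siRNA and 0.13 for TSA. The first 3 of these medians share the control siRNA arrays, and the TSA median shares the DMSO arrays, so they are given side by side and not compared. Transfection, time and solvent cannot be told apart between DMSO and control siRNA. Across all 36 members the DMSO median was -0.07 (all probe sets: 0.03), with 17 above 0 (all probe sets: 7372 of 13665). Groups did not overlap in 7 higher (19.4%, background 19.4%) and 7 lower members (19.4%, background 14.5%). On the log2(signal + 25.1) scale 2 of the higher ones, PCDHB6 and CDH15, differed by at least 2-fold (background 1.14%). PCDHB1 was short of it there, though its mean signals differed 2.76-fold.

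PCDH7, a non-clustered protocadherin of brain and heart, was read by 4 probe sets, none low on any array. On 3 of them every array with an EZH2 siRNA lay above both control siRNA arrays and every TSA array lay above both DMSO arrays. 205534_at had 1872.4 and 1508.6 with EZH2 siRNA no.2 and 1624.2 with the unnumbered EZH2 siRNA, against 1146.1 and 563.9 with control siRNA. This gave log2 fold changes of 1.04 with EZH2 siRNA no.2 (SE 0.36, adjusted p = 0.92 by limma) and 0.99 with the unnumbered EZH2 siRNA (limma adjusted p = 0.952). By replicate number siRNA no.2 gave 0.70 and 1.38, and 0.543 without control siRNA replicate 2. The same probe set had 1494.5 and 1352.1 in TSA, against 572.6 and 997.0 in DMSO. TSA thus gave 0.89 on the log2 scale (SE 0.36, adjusted p = 1.00 by limma), with 1.35 and 0.43 by replicate number, and 0.501 without DMSO replicate 1.

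PCDH7 210941_at had 323.9 and 252.9 with EZH2 siRNA no.2 and 309.8 with the unnumbered EZH2 siRNA, against 239.9 and 130.8 with control siRNA (log2 0.62, SE 0.33, and 0.233 without control siRNA replicate 2). It had 325.9 and 264.9 in TSA, against 94.3 and 131.5 in DMSO. Both TSA arrays lay above both DMSO and both control siRNA arrays. The log2 fold change in TSA was 1.22 (SE 0.33, limma adjusted p = 1.00), with 1.56 in replicate 1 and 0.89 in replicate 2. PCDH7 205535_s_at had 533.4 and 596.5 with EZH2 siRNA no.2 and 544.5 with the unnumbered EZH2 siRNA, against 443.6 and 246.7 with control siRNA (log2 0.72, SE 0.34, and 0.330 without control siRNA replicate 2). It had 563.2 and 554.0 in TSA, against 260.1 and 455.3 in DMSO (log2 0.66, SE 0.34, and 0.281 without DMSO replicate 1).

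The fourth PCDH7 probe set behaved differently. 210273_at had 904.4 and 1121.8 with EZH2 siRNA no.2 and 780.9 with the unnumbered EZH2 siRNA, against 907.1 and 909.6 with control siRNA (log2 0.15, SE 0.28). It had 1312.3 and 1482.0 in TSA, against 838.1 and 1323.3 in DMSO (log2 0.40, SE 0.28, and 0.0744 without DMSO replicate 1). Both pairs of groups overlapped. The files do not say which PCDH7 transcripts each probe set reads.

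**Figure D3:**
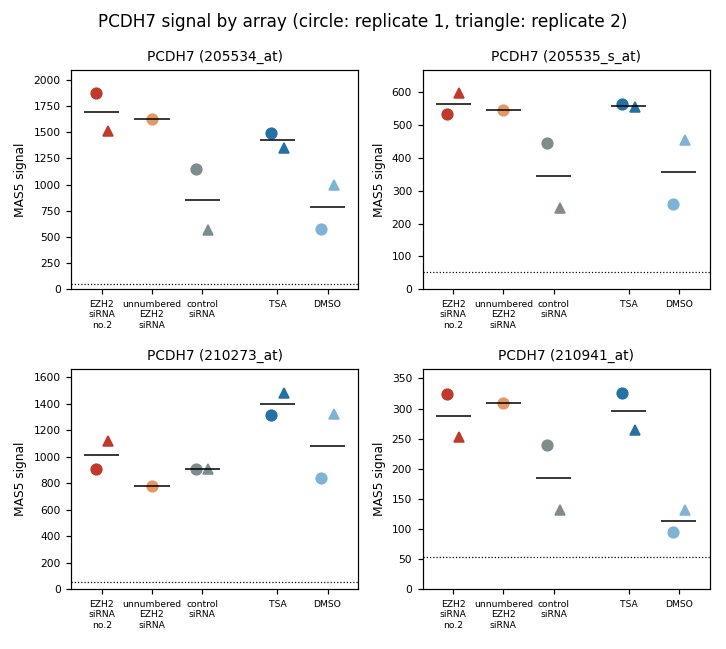
MAS5 signals of the 4 PCDH7 probe sets by group, with a circle for replicate 1, a triangle for replicate 2, a line for the group mean and a dotted line at the low mark of 53.33. On 205534_at, 205535_s_at and 210941_at the arrays with an EZH2 siRNA lie above control siRNA and the TSA arrays above DMSO, while on 210273_at these groups overlap.

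Of the 8 non-clustered probe sets tested 7 were above 0 with EZH2 siRNA no.2 (median 0.16), 7 with the unnumbered EZH2 siRNA (0.60) and 7 with TSA (0.42). Of all 13665 probe sets 7948, 7694 and 7560 were above 0, and 4 of the 8 are of PCDH7. PCDH17 (205656_at), a protocadherin of neural tissue, had 1894.7 and 1378.2 in TSA, against 1058.6 and 1304.8 in DMSO (log2 0.45, SE 0.26, and 0.225 without TSA replicate 1). It had 1578.9 and 1337.4 with EZH2 siRNA no.2, against 1326.2 and 1328.7 with control siRNA (log2 0.13). Neither pair of groups overlapped, though the closest arrays differed little. PCDH8, PCDH9 (219737_s_at) and PCDH1 (215277_at) gave 0.04, 0.17 and -0.15 with EZH2 siRNA no.2, and 0.35, 0.37 and -0.06 in TSA. PCDH8 had a single-array value of 197.4 with the unnumbered EZH2 siRNA, against 101.1 and 63.3 with control siRNA (log2 1.07, SE 0.61). With EZH2 siRNA no.2 it had 169.5 and 35.3, the latter low, or log2 0.62 and -0.55 by replicate number.

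The gamma and alpha protocadherins have clusters of their own beside the beta genes. Of the 10 gamma probe sets 6 were tested, with medians of 0.08 with EZH2 siRNA no.2 (4 above 0) and 0.28 with TSA (all 6 above 0). PCDHGB5 (211807_x_at) had 442.6 and 217.1 in TSA, against 236.9 and 166.8 in DMSO (log2 0.59, SE 0.40), and these groups overlapped. The value was 0.111 without TSA replicate 1. PCDHGC3, which has its own C-type promoter, was read by 214563_at at 18.1 with the unnumbered EZH2 siRNA, against 92.0 and 96.9 with control siRNA. This gave log2 -1.47 (SE 0.57, limma adjusted p = 0.952), while its other probe set, 214564_s_at, gave 0.18. PCDHGA3, on 2 probe sets, and PCDHGA1 lay between -0.07 and 0.35 with EZH2 siRNA no.2 and between 0.19 and 0.42 with TSA. Of the 4 alpha probe sets PCDHA5 and PCDHA9 were tested, at 0.25 and 0.43 with EZH2 siRNA no.2 and at 0.59 and 0.41 with TSA.

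Among type I cadherins, CDH2, the cadherin of neural and mesenchymal cells, was above the low mark on every array. Its probe set 203440_at had 280.6 and 726.5 with EZH2 siRNA no.2 and 315.0 with the unnumbered EZH2 siRNA, against 239.9 and 318.8 with control siRNA. The groups overlapped, the log2 fold change was 0.67 (SE 0.40), and it was 0.0179 without EZH2 siRNA no.2 replicate 2. In TSA this probe set had 337.0 and 498.9, against 263.2 and 339.2 in DMSO (log2 0.43, SE 0.40, and 0.160 without TSA replicate 2). The other CDH2 probe set, 203441_s_at, had 214.7 and 327.0 with EZH2 siRNA no.2 and 171.2 with the unnumbered EZH2 siRNA, against 203.9 and 251.1 with control siRNA. It had 169.4 and 257.2 in TSA, against 176.7 and 208.9 in DMSO. The log2 fold changes were 0.21 and 0.11, and both turned negative when a replicate 2 array was left out.

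CDH1, the E-cadherin of epithelia, was low on all 9 arrays. Its probe set 201130_s_at had 8.98 and 5.12 with EZH2 siRNA no.2 and 24.7 with the unnumbered EZH2 siRNA, against 26.1 and 24.7 with control siRNA, and 4.78 and 4.26 in TSA, against 4.51 and 2.51 in DMSO. Its probe set 201131_s_at did not exceed 8.40. CDH3, the P-cadherin, did not exceed 21.1 on any array. CDH15, the cadherin of muscle precursors, was low on 6 arrays of 206327_s_at, with 25.3 and 185.3 with EZH2 siRNA no.2 and 33.6 with the unnumbered EZH2 siRNA, against 15.1 and 33.3 with control siRNA. It had 30.6 and 150.6 in TSA, against 52.6 and 96.4 in DMSO. Its log2 fold change with EZH2 siRNA no.2, 1.09 (SE 0.70), was 0.0586 without EZH2 siRNA no.2 replicate 2. Its other probe set, 206328_at, was low on every array, at up to 52.1 in TSA replicate 1.

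Of the 17 type II probe sets 10 were tested, with a median of 0.01 with EZH2 siRNA no.2 and 0.17 with TSA. CDH11, the cadherin of osteoblasts and mesenchyme, was lower with EZH2 siRNA no.2 on both probe sets without overlap. CDH11 207173_x_at had 4642.4 and 3372.1 with EZH2 siRNA no.2 and 5748.9 with the unnumbered EZH2 siRNA, against 6021.4 and 6945.7 with control siRNA. This was a log2 difference of -0.71 (SE 0.29, adjusted p = 0.92 by limma), with -0.37 and -1.04 by replicate number, and -0.476 without EZH2 siRNA no.2 replicate 2. In TSA it had 6593.2 and 3878.5, against 4978.9 and 4115.5 in DMSO (log2 0.16), with the TSA arrays outside the DMSO arrays on both sides. DMSO against control siRNA gave -0.51, with both DMSO arrays below both control siRNA arrays. CDH11 207172_s_at had 1487.2 and 1048.4 with EZH2 siRNA no.2 and 1352.8 with the unnumbered EZH2 siRNA, against 1579.8 and 1641.5 with control siRNA (log2 -0.36, SE 0.28, and -0.113 without EZH2 siRNA no.2 replicate 2). It had 1440.7 and 966.2 in TSA, against 1370.3 and 1289.4 in DMSO (log2 -0.17).

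CDH10, a type II cadherin of brain, had 153.8 and 118.2 with EZH2 siRNA no.2 and 160.5 with the unnumbered EZH2 siRNA, against 79.6 and 82.7 with control siRNA. The groups did not overlap (log2 0.59, SE 0.43). In TSA it had 377.3 and 121.1, against 129.8 and 114.2 in DMSO (log2 0.72, SE 0.43), and the value was -0.00702 without TSA replicate 1. CDH6, a cadherin of kidney and neural crest, was read by 5 probe sets, of which 3 were low on every array. Its 210601_at had 102.9 and 113.2 in TSA, against 46.6 and 77.3 in DMSO (log2 0.64, SE 0.41), without overlap, and came to 0.378 without DMSO replicate 1. It had 48.2 and 109.3 with EZH2 siRNA no.2 and 27.3 with the unnumbered EZH2 siRNA, against 84.4 and 61.5 with control siRNA (log2 0.03). Its 210602_s_at had 38.8 and 57.2 in TSA, against 63.5 and 10.7 in DMSO (log2 0.37), and turned to -0.289 without DMSO replicate 2. CDH12, also of brain, had 909.3 and 640.3 with EZH2 siRNA no.2 and 1088.7 with the unnumbered EZH2 siRNA, against 818.4 and 897.0 with control siRNA (log2 -0.16). It had 1220.1 and 883.3 in TSA, against 899.9 and 1107.3 in DMSO (log2 0.06). CDH8, on 2 probe sets, CDH18 and CDH22 lay between -0.40 and 0.10 with EZH2 siRNA no.2 and between -0.26 and 0.41 with TSA.

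**Figure D4:**
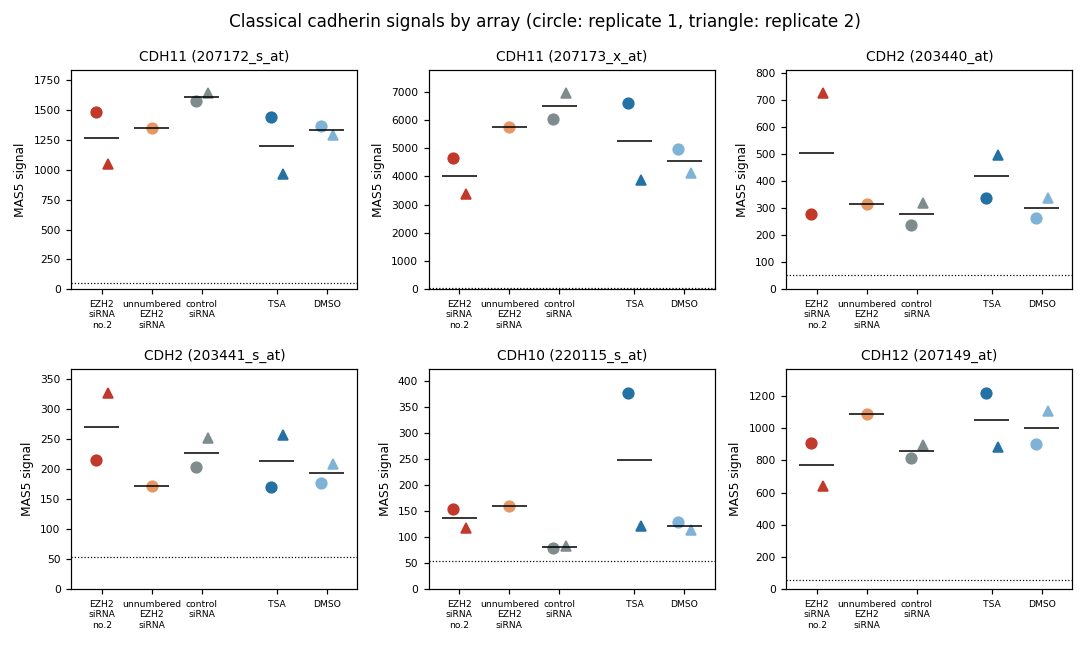
MAS5 signals of the CDH11, CDH2, CDH10 and CDH12 probe sets by group, with a circle for replicate 1, a triangle for replicate 2, a line for the group mean and a dotted line at the low mark of 53.33. Both CDH11 probe sets lie lower with EZH2 siRNA no.2 than with control siRNA, and the CDH2 203440_at mean with EZH2 siRNA no.2 and the CDH10 mean in TSA rest on single high arrays (726.5 with EZH2 siRNA no.2 replicate 2 for CDH2, 377.3 in TSA replicate 1 for CDH10).

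The unnumbered EZH2 siRNA has a single array, whose spread was taken from the groups with 2. Against control siRNA 0 of 36 members passed limma after adjustment (background 0%), with a lowest adjusted p of 0.952. At an unadjusted p under 0.05 there were 2 (5.56%, background 5.01%), PCDH7 (205534_at, higher, background 2.81%) and PCDHGC3 (214563_at, lower, background 2.2%). The median was 0.24 (all probe sets: 0.07), with 25 of 36 above 0 (all probe sets: 7694 of 13665). Its array lay above both control arrays in 19 members (52.8%, background 39.2%) and below both in 7 (19.4%, background 27.9%).

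Of the 5 lists of partner genes, 0 probe sets passed limma's adjusted threshold in either main comparison. Genes are named by probe sets picked for the smallest p of their list. FYN, ARVCF, MGAT5, PSEN2, ZEB1, TCF3, STAG1, WAPL and SMC1A have further probe sets whose values are not given. For these a value is that of the picked probe set and not of the gene. Of 27 probe sets of catenins and cadherin adaptors 4 were higher (background 3.56%) and 0 lower (background 1.71%) at an unadjusted p under 0.05 with EZH2 siRNA no.2 (median 0.21). IQGAP1, a scaffold that binds cadherin complexes and actin, had 1956 and 1738 on 210840_s_at with EZH2 siRNA no.2, against 889 and 916 with control siRNA (log2 1.01, SE 0.23). Its other tested probe sets gave 0.38 and -0.01, and the kinase ROCK1 gave 0.69 (SE 0.24) and 0.30. In TSA the smallest p values were those of the kinase FYN on 216033_s_at (-1.19, SE 0.49) and the catenin ARVCF (0.97, SE 0.53), in a list with a median of 0.09, with 0 higher (background 1.24%) and 1 lower (background 1.17%) at an unadjusted p under 0.05.

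Other members of the cadherin superfamily (16 probe sets tested) had medians of 0.09 with EZH2 siRNA no.2 and 0.13 with TSA. The receptor tyrosine kinase RET, which carries cadherin-like repeats, had 1246 and 903 on 205879_x_at with EZH2 siRNA no.2, against 1594 and 1821 with control siRNA (log2 -0.67, SE 0.26), and its other probe sets gave -0.67 and -0.78. FAT4 gave 0.82 (SE 0.32) with the siRNA, CDHR2 0.86 (SE 0.35) and FAT1 0.54 (SE 0.31) with TSA. Enzymes that cut or glycosylate cadherins (12 probe sets) had 0 at an unadjusted p under 0.05 in either comparison (backgrounds 5.27% and 2.41%), with ADAM9 at 0.48 and MGAT5 at 0.65 with the siRNA, and PSEN2 (211373_s_at) at -0.57 and ADAM15 at -0.68 with TSA.

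Regulators of CDH1 and of the switch between CDH1 and CDH2 (33 probe sets) had medians of 0.01 with EZH2 siRNA no.2 and 0.12 with TSA. ZEB1, a repressor of CDH1, had 128.0 and 144.5 with EZH2 siRNA no.2, against 33.1 and 50.6 with control siRNA (log2 1.28, SE 0.35, limma adjusted p = 0.92). Both control siRNA arrays were low there, and these values come from a single probe set among several of ZEB1. CTBP2, its corepressor, gave 0.77 (SE 0.26) on 201218_at and between -0.31 and 0.07 on its other tested probe sets. In TSA, ZEB2 stood at 0.63 (SE 0.33) and TCF3 (216645_at) at 0.48 (SE 0.36). Regulators of the protocadherin clusters (25 probe sets) had medians of 0.08 and 0.24, with 14 and 22 above 0 in the siRNA and TSA comparisons. Of all 13665 probe sets 7948 and 7560 were above 0 there. CTCF had 1453 and 1230 in TSA, against 933.8 and 926.8 in DMSO (log2 0.51, SE 0.24), and the cohesin subunit STAG1 had 834.5 and 680 on 202293_at, against 461.5 and 459.4 (log2 0.68, SE 0.25). With the siRNA the smallest p values were those of the cohesin release factor WAPL on 212267_at (0.55, SE 0.25) and the cohesin subunit SMC1A on 201589_at (0.52, SE 0.27).

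Markers of the line and of other cells were set beside these values. Of the 11 Ewing sarcoma markers, which include the targeted EZH2 itself, 0 were low on every array of any group. Of their 16 probe sets 15 were below 0 with EZH2 siRNA no.2 (median -0.46), beside 5717 of all 13665. At an unadjusted limma p under 0.05, 6 were lower (background 1.71%) and 1 higher (background 3.56%). Their summed signal was 43250 to 47060 with EZH2 siRNA no.2 and 49680 with the unnumbered EZH2 siRNA, against 53620 to 65470 with control siRNA, and 53450 to 53820 in TSA, against 55940 to 58170 in DMSO. The epithelial markers EPCAM, CLDN3, CLDN4, CLDN7, KRT19 and KRT14, the endothelial markers VWF, KDR and TIE1, the muscle markers MYOD1, CKM and MYH3 and the blood markers PTPRC, CD14 and SPI1 were low on all 9 arrays. KRT8, KRT18 and ELF3 of the epithelial list, PECAM1 and ROBO4 of the endothelial, ACTC1 of the muscle and HBB of the blood list were low on no array. The rest of these lists were low on some arrays. TNNT1 and CD3E were low on 2, ST14 on 3, and KRT5 and ERG on 5. CLDN5 and DES were low on 7, and ESRP1, EMCN, TEK and MYOG on 8. Of 25 fibroblast and mesenchymal probe sets 20 were above 0 with EZH2 siRNA no.2 (median 0.28) and 17 with TSA (0.21), beside 7948 and 7560 of all 13665. Of these, 5 (background 3.56%) and 4 (background 1.24%) were higher at an unadjusted limma p under 0.05. Their summed signal was 41100 to 44510 with EZH2 siRNA no.2 and 40790 with the unnumbered EZH2 siRNA, against 33990 to 40280 with control siRNA. It was 42250 to 56300 in TSA, against 39570 to 43570 in DMSO, and of its 10 genes LUM was low on 6 arrays and the others on none. Of 11 neuronal and glial probe sets 7 were above 0 with EZH2 siRNA no.2 (median 0.15) and 5 with TSA (median -0.11). Of that list TUBB3, SYT1, NEFL, NEFM and SNAP25 were low on no array. S100B and STMN2 were low on all 9 arrays, and GFAP, MAP2 and SOX10 on some. The part of these lists in the members' values was not tested.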

How the data were processed

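Per the submitters' processing notes, the authors used MAS5 to make the deposited intensity values. Its version is not given in the labels, and the trimmed mean of 500.1 to 500.2 on every array was read from the values. The number of arrays limits the precision.

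Group means were fitted to log2(signal + 25.1) over the 9 arrays by limma (version 3.58.1, R version 4.3.3), using eBayes with trend (4 residual and 7.009 prior degrees of freedom). The added 25.1 is the 20th percentile of the signals. A fold change on this scale understates the change of low genes. Of 22283 probe sets, 68 are controls, 19065 name 1 gene, 1043 name several and 2107 name none. Those with 1 gene and a mean signal of at least 53.33 were tested, 13665 in all. Tests were two-sided, with Benjamini-Hochberg adjustment over all 13665 and a threshold of 0.05. With 2 arrays against 2 the smallest exact permutation p is 0.333, so none was used. The fit was also run on simulated data with independent noise on each array. That setting lacks the deviations shared by same-numbered arrays, given below, so no conclusion is drawn from it. Gene symbols and chromosomes came from the platform annotation and RefSeq.

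Members named with values were the 10 with the smallest unadjusted p in each main comparison (EZH2 siRNA no.2 against control siRNA, TSA against DMSO), those with at least 2-fold change without overlap, the type I cadherins and further probe sets of these genes. Some others were named after their values were seen, among them PCDHB8, PCDHB11, PCDH8, PCDHGC3 and CDH12. Partner lists gave their 2 smallest p in each comparison, and marker lists were given by counts and levels. Members and lists were chosen with earlier results of these data known. The alternatives were other pseudocounts, filters and scalings, 1 probe set per gene, eBayes without trend and only the compared groups. Further ones were the 3 EZH2 siRNA arrays as 1 group, replicate number as a block and leaving out 1 array at a time.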

Additional observations from a re-analysis of the deposited data

How the results depend on the processing

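Under every alternative run, 19 for EZH2 siRNA no.2 and the difference of effects, 18 for TSA and DMSO and 17 for the unnumbered siRNA, 0 members passed limma's adjusted threshold, and the lowest adjusted p of a member was 0.511 with EZH2 siRNA no.2, 0.548 with TSA and 0.652 with the unnumbered EZH2 siRNA. The replicate block moved the members at an unadjusted p under 0.05 to 10 with EZH2 siRNA no.2 (5 without it), 4 for DMSO against control siRNA (1) and 3 for the difference of effects (1), while the share of all probe sets moved to 8.65% (5.27% without it), 7.06% (4.26%) and 3.28% (1.71%). The labels give no more than a shared number. Same-numbered arrays deviated together at r = 0.303 between EZH2 siRNA no.2 and control siRNA and at 0.359 between TSA and DMSO.

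Without the block, EZH2 siRNA no.2 gave 2 with the filter at the 50th percentile, 3 after quantile normalization, and 2 to 5 with an array left out. The unnumbered siRNA gave 1 with the 50th percentile filter, with 1 probe set per gene and with the arrays scaled to equal medians, and 1 to 4 with an array left out. TSA gave 1 with 1 probe set per gene and with equal medians, and 1 to 7 with an array left out, the 7 without TSA replicate 2, where 7.55% of all probe sets did so (2.41% with it). DMSO against control siRNA gave 0 with the 50th percentile filter, 3 with no filter, 2 with the 5th percentile pseudocount, without the trend and with only its groups, and 0 to 3 with an array left out. The difference of effects gave 0 with the 50th percentile filter, 2 with no filter and 1 to 3 with an array left out.

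Equal medians moved the median of all probe sets from 0.07 to -0.06 with EZH2 siRNA no.2, and that of the members to 0.0796. With no filter the members' median was 0.0847 there and 0.145 with TSA. With an array left out the members' median ran from 0.133 to 0.358 there and from 0.241 to 0.333 with the unnumbered siRNA. The unnumbered siRNA median was 0.334 and 0.154 with the 5th and 40th percentile pseudocounts, 0.182 with no filter, 0.177 with the 50th percentile filter and after quantile normalization, and 0.145 with equal medians.

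Some named values changed sign, and the cause was not tested. With an array left out, the siRNA no.2 value ran from -0.0683 to 0.486 for CDH2 (203441_s_at) and from -0.00604 to 0.297 for PCDH7 (210273_at). The TSA value ran from -0.160 to 0.377 for CDH2 (203441_s_at), -0.802 to 0.855 for CDH15, -0.289 to 1.02 for CDH6 (210602_s_at), -0.00702 to 1.45 for CDH10 and -2.48 to 0.318 for PCDHB13. For CDH15 in TSA it was also -0.0352 with the 5th percentile pseudocount, -0.0324 after quantile normalization and -0.0236 with equal medians. Signals near background, with no detection calls, limit the low members.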
